A study of Mus musculus with 365 samples.

Results

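The mouse genes Lck, Nkg7, Il12a, Mn1, Arpp21, Emp1 and Ctla2a were described across single bone marrow progenitor cells as a group of genes chosen by their correlation with Dntt. They were selected on the measured values themselves: in TN cells each was higher in the cells of a chip that held more Dntt transcript. The 7 members were taken from 23427 genes in the count table, and all 7 had reads on all 6 chips and passed the filter on low counts. Because the TN correlations chose the genes, those values are given as a description, and the tests concern Ly6D+ cells and the difference between the populations.

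The cells came from femoral bone marrow of C57BL/6 mice carrying a Flt3 ligand transgene (Flt3Ltg), with pools of 2 mice named in the labels. Every cell of both groups comes from mice with that transgene, whose product expands early lymphoid and dendritic progenitors, and no mouse without it was compared. Progenitors of the EPLM compartment, early cells with lymphoid and myeloid potential, were sorted into a Ly6D+ part of 152 cells and a TN (triple negative) part of 213 cells, and full-length cDNA of single cells was sequenced. The labels do not give the age of the mice. Ly6D+ cells filled chips 4, 5 and 6 (40, 60 and 52 cells) and TN cells filled chips 1, 2 and 3 (75, 69 and 69 cells), so chip and population cannot be told apart. Xist was detected in 41 of the 69 cells of TN chip 2 and in 0 cells of every other chip. The sort was visible in the transcripts, as Ly6d itself was detected in 144 cells sorted as Ly6D+ and in 31 sorted as TN.

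Dntt encodes terminal deoxynucleotidyl transferase, which adds untemplated nucleotides where immunoglobulin and T cell receptor gene segments are joined, and it is a classical early mark of lymphoid progenitors. The members do varied work. Lck is a Src family tyrosine kinase that starts T cell receptor signalling, and Il12a encodes the smaller chain of interleukin 12, which must pair with a partner chain to be secreted as a cytokine. Nkg7 is a granule membrane protein of cytotoxic lymphocytes, and Emp1 is a relative of it in the PMP22 and claudin superfamily of proteins that span the membrane 4 times. Ctla2a encodes a small protein that resembles the propeptide of cysteine proteases and inhibits cathepsin L. Mn1 is a transcriptional cofactor known from human leukaemia translocations, and Arpp21 is an RNA-binding phosphoprotein of neurons that also has a form in immature thymocytes.

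Promoter sequence was available from RefSeq (GRCm38.p6, from 250 bases before to 50 after each start) for Dntt and 6 of the 7 members. The windows of Dntt, of both Lck start sites and of Nkg7 are printed as those of the anchor gene and of the members with the lowest and the highest correlation with it in Ly6D+ cells. The windows of the first Ctla2a start site and of its paralog Ctla2b are printed because the genes are close copies. Capitals mark CANNTG, the E-box that E proteins bind, which reads the same on both strands.
Dntt, chr19:41029025-41029324, plus strand: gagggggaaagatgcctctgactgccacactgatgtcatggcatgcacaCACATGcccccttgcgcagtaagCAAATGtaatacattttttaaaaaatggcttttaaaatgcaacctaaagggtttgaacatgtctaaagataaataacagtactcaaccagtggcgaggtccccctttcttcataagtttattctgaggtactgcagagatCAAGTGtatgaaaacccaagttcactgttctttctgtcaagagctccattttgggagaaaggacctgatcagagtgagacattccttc
Lck distal start, chr4:129573592-129573891, minus strand: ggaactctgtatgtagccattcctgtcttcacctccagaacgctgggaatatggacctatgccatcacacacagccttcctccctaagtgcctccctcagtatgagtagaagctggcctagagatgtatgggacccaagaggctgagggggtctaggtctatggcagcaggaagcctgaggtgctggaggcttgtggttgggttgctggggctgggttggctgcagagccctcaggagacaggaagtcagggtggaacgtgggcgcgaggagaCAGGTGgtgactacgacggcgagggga
Lck proximal start, chr4:129558323-129558622, minus strand: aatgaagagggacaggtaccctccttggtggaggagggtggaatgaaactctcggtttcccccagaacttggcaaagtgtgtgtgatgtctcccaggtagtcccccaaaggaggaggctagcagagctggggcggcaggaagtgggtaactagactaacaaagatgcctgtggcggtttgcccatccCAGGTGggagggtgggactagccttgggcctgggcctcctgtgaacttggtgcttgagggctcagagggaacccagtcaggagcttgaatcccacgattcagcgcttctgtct
Nkg7, chr7:43436888-43437187, plus strand: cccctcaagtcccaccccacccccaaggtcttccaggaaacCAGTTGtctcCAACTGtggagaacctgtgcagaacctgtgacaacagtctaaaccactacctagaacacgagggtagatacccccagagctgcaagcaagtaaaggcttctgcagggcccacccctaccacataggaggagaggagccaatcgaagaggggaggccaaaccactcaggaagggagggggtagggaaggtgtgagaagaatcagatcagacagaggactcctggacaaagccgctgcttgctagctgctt
Ctla2a, chr13:60936576-60936875, minus strand: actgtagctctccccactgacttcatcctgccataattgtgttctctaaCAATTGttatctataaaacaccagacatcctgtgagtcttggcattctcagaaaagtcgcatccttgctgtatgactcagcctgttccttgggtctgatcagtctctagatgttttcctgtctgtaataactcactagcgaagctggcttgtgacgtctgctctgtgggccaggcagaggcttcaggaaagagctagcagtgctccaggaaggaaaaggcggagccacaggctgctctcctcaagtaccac
Ctla2b, chr13:60897398-60897697, minus strand: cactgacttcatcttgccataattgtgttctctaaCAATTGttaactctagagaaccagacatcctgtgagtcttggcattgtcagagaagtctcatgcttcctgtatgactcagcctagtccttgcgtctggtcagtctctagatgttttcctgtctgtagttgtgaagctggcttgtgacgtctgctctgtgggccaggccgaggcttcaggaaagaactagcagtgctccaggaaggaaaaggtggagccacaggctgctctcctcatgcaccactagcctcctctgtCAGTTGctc
CANNTG stood 3 times in the Dntt window, once in each Lck window, 2 times in that of Nkg7, once in that of Ctla2a and 2 times in that of Ctla2b, any position in the window counted. The CAGTTG near the end of the Ctla2b window also stands in Ctla2a, past the end of the printed window. It lies in the window of the other Ctla2a start site, which is not printed. Of 32851 mouse promoter windows of 300 bases, 72.3% hold at least 1 CANNTG, so its presence here is common. A TGTGGT, the core that Runx factors bind, was searched on both strands and stood once in the distal Lck window and once in that of Nkg7, in neither the Dntt nor the Ctla2a window, and in 16.8% of all windows.

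Cells held between 267852 and 1854600 gene reads. Levels are given as CPM, the usual scaling of read counts to a common library size, after TMM scaling of the reads summed over a chip's cells. A gene was called detected in a cell with 5 or more reads after every cell was thinned to 200000 reads. Within a chip, Spearman's rank correlation of CPM across cells was used, and since the cells of a chip share capture and library preparation it is given with no p-value. Genes in 10% or more of a population's cells form the background.

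In TN cells the members stood among the 10 genes most correlated with Dntt out of 6797 genes detected in at least 10% of TN cells. The mean over 3 chips was 0.59 for Il12a and Mn1, 0.58 for Lck, 0.57 for Emp1, 0.54 for Ctla2a, 0.52 for Arpp21 and 0.51 for Nkg7. Gimap6, a GTPase of lymphocytes, led that ranking with 0.67, and Gm5111 with 0.60 and Cmah with 0.57 also stood within it without being members. Nkg7 was the member with the lowest value, and Septin1 with 0.49 was the next gene below it. All 7 members were positive on all 3 TN chips, against 30.3% of all genes, and this share follows from how they were chosen. Il12a ranged from 0.52 to 0.70 over the TN chips and Arpp21 from 0.41 to 0.57, so chips differed more for these genes than for Mn1 at 0.57 to 0.62.

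Among Ly6D+ cells, which the choice did not use, correlations with Dntt were small and mostly positive. Nkg7 had the highest mean with 0.24 ± 0.06 (SD, n = 3 chips), from 0.19, 0.30 and 0.24 on chips 4, 5 and 6. Ctla2a followed with 0.20 ± 0.10, Emp1 with 0.17 ± 0.04 and Arpp21 with 0.15 ± 0.11, and these 4 genes were positive on all 3 chips. Lck, the best known T cell gene of the group, had 0.05 ± 0.15, with −0.06, −0.00 and 0.22 on chips 4, 5 and 6. Il12a was the least even member, with −0.20 on chip 4 but 0.38 on chip 5 and 0.22 on chip 6. Mn1 had −0.01, 0.21 and 0.12. Thus 4 of 7 members were positive on every Ly6D+ chip, against 14.6% of the 6988 genes detected in at least 10% of Ly6D+ cells. The median of the members' means was 0.15 in Ly6D+ cells, where the median of all genes was −0.01 and the 99th percentile 0.26, and it was 0.57 in TN cells, where the median of all genes was 0.05. Whether the link differed between Ly6D+ and TN cells was not tested, since the TN values chose the genes. By Pearson correlation of log2(CPM+1), or by detected calls alone, all 7 members were positive on every Ly6D+ chip. The means were from 0.18 to 0.35 for the Pearson measure and from 0.13 to 0.43 for the calls. The calls rest on few cells without Dntt, namely 1, 8 and 2 on chips 4, 5 and 6. The 1 such cell of chip 4 held no member, so it fixed the sign of the calls there for every member. Among cells with Dntt detected the members' means shrank to between −0.03 and 0.15 in Ly6D+ cells and to between 0.25 and 0.44 in TN cells. The number of genes detected in a cell moved with some members too, with mean correlations of 0.46 for Mn1 in Ly6D+ cells and 0.46 for Il12a in TN cells, against −0.10 and 0.16 for Dntt in Ly6D+ and TN cells. With that number held fixed by partial correlation, Mn1 in Ly6D+ cells had 0.17 and Il12a in TN cells had 0.58.

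**Figure D1:**
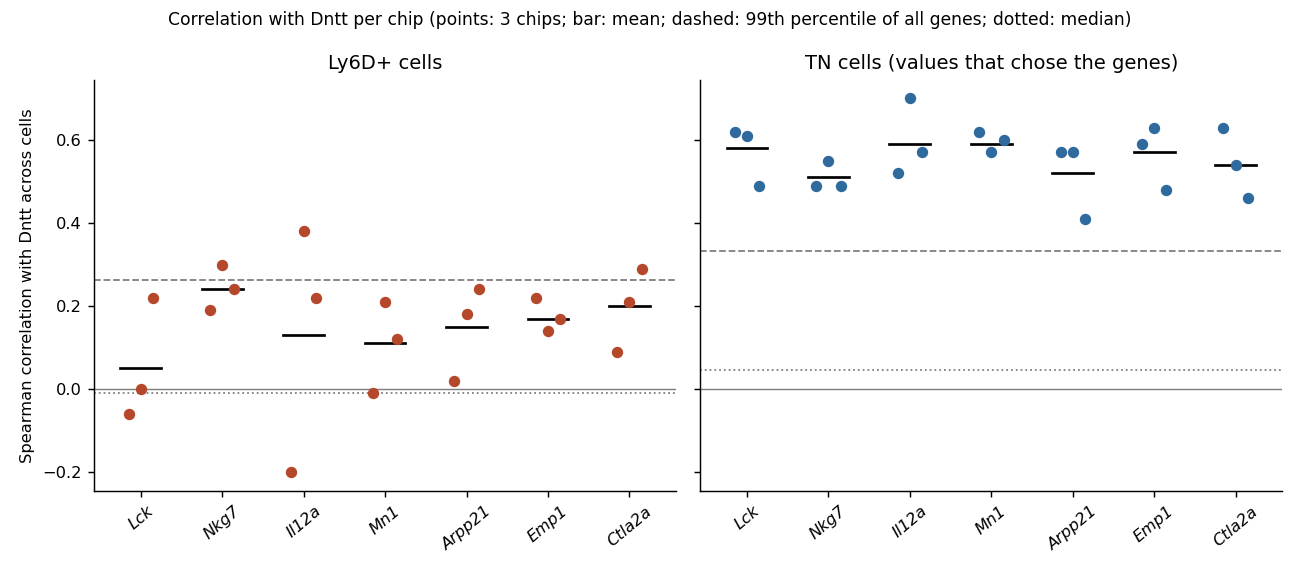
Spearman correlation of each member with Dntt across the cells of each chip, for Ly6D+ cells (left) and TN cells (right). Points are chips, short bars their mean, the dashed line is the 99th percentile and the dotted line the median of the mean correlation over all genes. All TN points lie at 0.41 or higher, whereas Ly6D+ points lie between −0.20 and 0.38.

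The same question was put to levels by comparing Ly6D+ cells above their chip's median Dntt level with the remaining cells of the chip, 20 against 20 cells on chip 4, 30 against 30 on chip 5 and 26 against 26 on chip 6. Dntt averaged 6690 CPM in the Dntt-higher cells and 1365 CPM in the Dntt-lower cells, by construction. No member passed edgeR's quasi-likelihood test with chip as a term and Benjamini-Hochberg adjustment over all genes, where the adjusted p of the members lay between 0.986 and 1. No other gene passed either, so the background is 0% of 11456 genes. Without adjustment 543 genes and none of the members had p under 0.05. DESeq2 on the same sums called 487 genes and limma-trend on mean log2 values called 5, and neither list held a member.

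Lck had 463, 393 and 529 CPM in the Dntt-higher Ly6D+ cells of chips 4, 5 and 6, against 651, 1114 and 402 CPM in the Dntt-lower cells. It was thus lower beside high Dntt on chips 4 and 5 and higher on chip 6, and its fitted log2 difference was −0.53 ± 0.37 (SE). Ctla2a had 41.2, 42.0 and 27.4 CPM in the Dntt-higher cells, against 26.7, 5.78 and 3.69 CPM in the Dntt-lower cells. It was higher on all 3 chips, with a log2 difference of 2.16 ± 1.14 that rests on few reads. Nkg7 had 320, 341 and 545 CPM in the Dntt-higher cells, against 285, 319 and 405 CPM in the Dntt-lower cells, and Arpp21 had 327, 216 and 492 CPM in the Dntt-higher cells, against 233, 204 and 263 CPM in the Dntt-lower cells. Both were higher on all 3 chips, by 0.23 ± 0.22 and 0.49 ± 0.28 on the log2 scale. Il12a, Mn1 and Emp1 were each higher on 2 of 3 chips, with log2 differences of 0.37 ± 0.30, 0.25 ± 0.24 and 0.73 ± 0.47. Il12a had 652 CPM in the Dntt-higher and 912 CPM in the Dntt-lower cells of chip 4, the reverse of chips 5 and 6.

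Cell cycle, B lineage and dendritic genes moved with this split of Ly6D+ cells. The 15 genes of a G2/M list summed to between 719 and 1738 CPM in the Dntt-higher cells and to between 3686 and 4819 CPM in the Dntt-lower cells, and the 15 genes of a B lineage list summed to between 3382 and 4513 CPM in the Dntt-higher and to between 2071 and 2443 CPM in the Dntt-lower cells. Plasmacytoid dendritic genes (9) summed to 4251, 4410 and 3498 CPM in the Dntt-higher cells of chips 4, 5 and 6, against 6474, 6751 and 5733 CPM in the Dntt-lower cells, and genes of conventional dendritic cells and MHC class II (10) to between 1110 and 1265 CPM in the Dntt-higher and to between 1435 and 2308 CPM in the Dntt-lower cells. Their part in the members' values was not tested.

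In TN cells the same split set all cells with Dntt reads above the chip median against cells with none, since the median was 0. Lck had 538, 364 and 292 CPM in the Dntt-higher TN cells of chips 1, 2 and 3, against 106, 53.0 and 34.4 CPM in the Dntt-lower cells. The ratio of the means was 6.19 for Lck, 5.74 for Il12a, 5.11 for Mn1 and 2.61 for Nkg7. It was larger for the genes found in few TN cells, with 11.0 for Ctla2a, 15.1 for Arpp21 and 21.1 for Emp1, whose level in the Dntt-lower cells was 12.6, 0 and 1.84 CPM. These ratios describe the values that chose the genes. Granulocyte and monocyte genes (14) summed to between 300 and 676 CPM in the Dntt-higher and to between 2407 and 4627 CPM in the Dntt-lower TN cells, and genes of conventional dendritic cells and MHC class II (10) to between 1024 and 1638 CPM in the Dntt-higher and to between 4690 and 9335 CPM in the Dntt-lower cells. T and innate lymphoid genes (12) summed to between 390 and 929 CPM in the Dntt-higher and to between 1590 and 2426 CPM in the Dntt-lower TN cells, and B lineage genes (15) to between 292 and 1545 CPM in the Dntt-higher and to between 150 and 288 CPM in the Dntt-lower cells. Over the 5 T and innate lymphoid genes tested, the median correlation with Dntt in TN cells was 0.09, and Id2 had −0.27. The part of these lists in the ratios was not tested.

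Counted cell by cell, a Ly6D+ cell held 4.22 ± 0.57 of the 7 members and a TN cell 1.98 ± 0.26 (mean and SD of 3 chip means). Only 4 of 152 Ly6D+ cells held none, against 67 of 213 TN cells, and 105 Ly6D+ cells against 51 TN cells held 4 or more. All 7 were found together in 7 Ly6D+ cells and in 2 TN cells. The 141 Ly6D+ cells with Dntt detected held 4.35 members on average and the 11 without it held 1.55. In TN cells the 65 with Dntt detected held 3.98 members and the 148 without it held 1.11, a contrast that belongs to the choice of genes. Of the 11 Ly6D+ cells without Dntt, 8 lay on chip 5, 2 on chip 6 and 1 on chip 4. Median reads were 942654 and 831166 in Ly6D+ cells with and without Dntt and 811200 and 798089 in such TN cells. The median number of genes detected was 2764 and 2443 in Ly6D+ cells with and without Dntt and 2810 and 2544 in such TN cells, and its part in the members' counts was not tested.

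**Figure D2:**
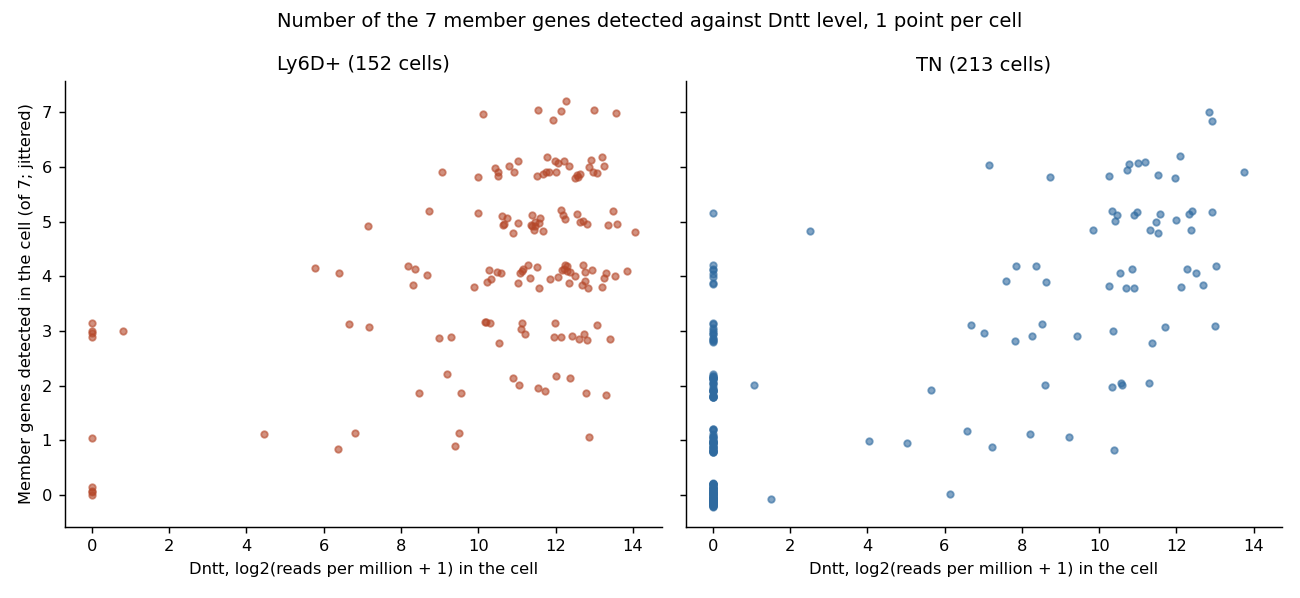
Number of the 7 member genes detected in each cell (vertical axis, jittered) against the Dntt level of that cell (horizontal axis, log2 of CPM plus 1), for 152 Ly6D+ cells (left) and 213 TN cells (right). TN cells form a crowd without Dntt and with 1.11 members on average and a smaller group of 65 cells with Dntt, while nearly all Ly6D+ cells lie at high Dntt.

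A member was also found in TN cells without Dntt. Emp1 and Ctla2a came closest, as 20 of 24 TN cells with Emp1 (83.3%) and 22 of 27 with Ctla2a (81.5%) also had Dntt. For Arpp21 it was 67.6%, for Lck 67.2% and for Mn1 66.2%. Nkg7 and Il12a reached further, since 44 of 93 TN cells with Nkg7 and 57 of 116 TN cells with Il12a lacked Dntt. In Ly6D+ cells the share with Dntt was between 96.1% and 100% for every member, in a population where 92.8% of cells have it.

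Among cells with Dntt detected the shares of Ly6D+ and TN chips overlapped for every member but Arpp21. That gene was detected in 74.4%, 55.8% and 80.0% of the Dntt-detected Ly6D+ cells of chips 4, 5 and 6, against 45.5%, 29.2% and 31.6% of the Dntt-detected TN cells of chips 1, 2 and 3. For Nkg7 the means were 76.5% ± 9.61 and 75.7% ± 14.3, for Il12a 93.5% ± 2.31 and 90.1% ± 9.64, and for Mn1 61.9% ± 11.0 and 64.8% ± 19.7 in Ly6D+ and TN cells (SD, n = 3 chips each). For Ctla2a the means were 24.6% ± 5.55 in Ly6D+ and 33.6% ± 10.3 in TN cells. Arpp21 was thus the 1 of 7 members that was higher in Ly6D+ cells without overlap, where 5.09% of 7112 genes were. This comparison was added after the values were seen and carries no test, since the choice of genes favours cells that hold both Dntt and a member in TN.

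Over all cells, the level on every Ly6D+ chip lay above that on every TN chip for 5 members, while the chips overlapped for Nkg7 and Ctla2a. The signalling kinase Lck had 571, 763 and 475 CPM on Ly6D+ chips 4, 5 and 6, against 228, 174 and 107 CPM on TN chips 1, 2 and 3. The lowest Ly6D+ chip lay well above the highest TN chip, and the log2 fold change was 1.83 ± 0.32 (SE), with an adjusted p of 0.0972 by edgeR. The cytokine chain Il12a had 802, 809 and 662 CPM on Ly6D+ chips, against 323, 219 and 403 CPM on TN chips. The groups did not overlap (log2 fold change 1.27 ± 0.25, adjusted p = 0.152 by edgeR). The cofactor Mn1 had 622, 510 and 679 CPM on Ly6D+ chips, against 279, 473 and 220 CPM on TN chips. TN chip 2 lay close to the lowest Ly6D+ chip, and the fold change of 0.90 ± 0.30 on the log2 scale had an adjusted p of 0.400 by edgeR.

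Arpp21, the RNA-binding phosphoprotein, had the largest fold of the 7 in this comparison. It had 288, 209 and 387 CPM on Ly6D+ chips, against 33.4, 66.5 and 96.5 CPM on TN chips, a log2 fold change of 2.17 ± 0.43 with an adjusted p of 0.145 by edgeR. The membrane protein Emp1 had 152, 130 and 132 CPM on Ly6D+ chips, against 66.4, 19.9 and 16.2 CPM on TN chips. Its Ly6D+ chips were even and TN chip 1 was the highest of the TN chips, and the log2 fold change was 2.02 ± 0.56 (adjusted p = 0.286 by edgeR). Single cells weighed heavily where a gene was rare, since 1 cell held 54.3% of the Emp1 reads and 1 cell 51.7% of the Arpp21 reads of TN chip 3.

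Nkg7 had 311, 328 and 485 CPM on Ly6D+ chips, against 324, 230 and 238 CPM on TN chips, with 0.50 ± 0.26 as log2 fold change (adjusted p = 0.674 by edgeR). Ctla2a had 34.9, 23.1 and 16.3 CPM on Ly6D+ chips, against 29.8, 28.7 and 17.0 CPM on TN chips. Its log2 fold change was −0.02 ± 0.59, and its sign turned under several settings. Chips of the 2 populations overlapped for both genes.

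None of the 7 members passed the adjusted threshold of 0.05 in edgeR, where 0.0932% of 11797 genes did so in the direction of Ly6D+. Without adjustment 5 members and 988 genes had p under 0.05. Chip values did not overlap for 5 of 7 members, against 7.64% of all genes that were higher in Ly6D+ cells in this way, and the median log2 fold change was 1.27 over the members and 0.01 over all genes. DESeq2 on the same sums called 4 members higher (Lck, Il12a, Arpp21 and Emp1; background 2.33%). Limma-trend on chip means of log2(CPM+1), which gives each cell equal weight, called 6 higher, all except Ctla2a (background 1.87%). For comparison, Dntt had 4944, 3489 and 3833 CPM on Ly6D+ chips, against 967, 671 and 555 CPM on TN chips (log2 fold change 2.48 ± 0.25, adjusted p = 0.0120 by edgeR), and its adjusted p lay between 0.0655 and 0.0723 when Ly6D+ chip 4 or 6, TN chip 2 or the Xist-expressing cells of TN chip 2 were left out.

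**Figure D3:**
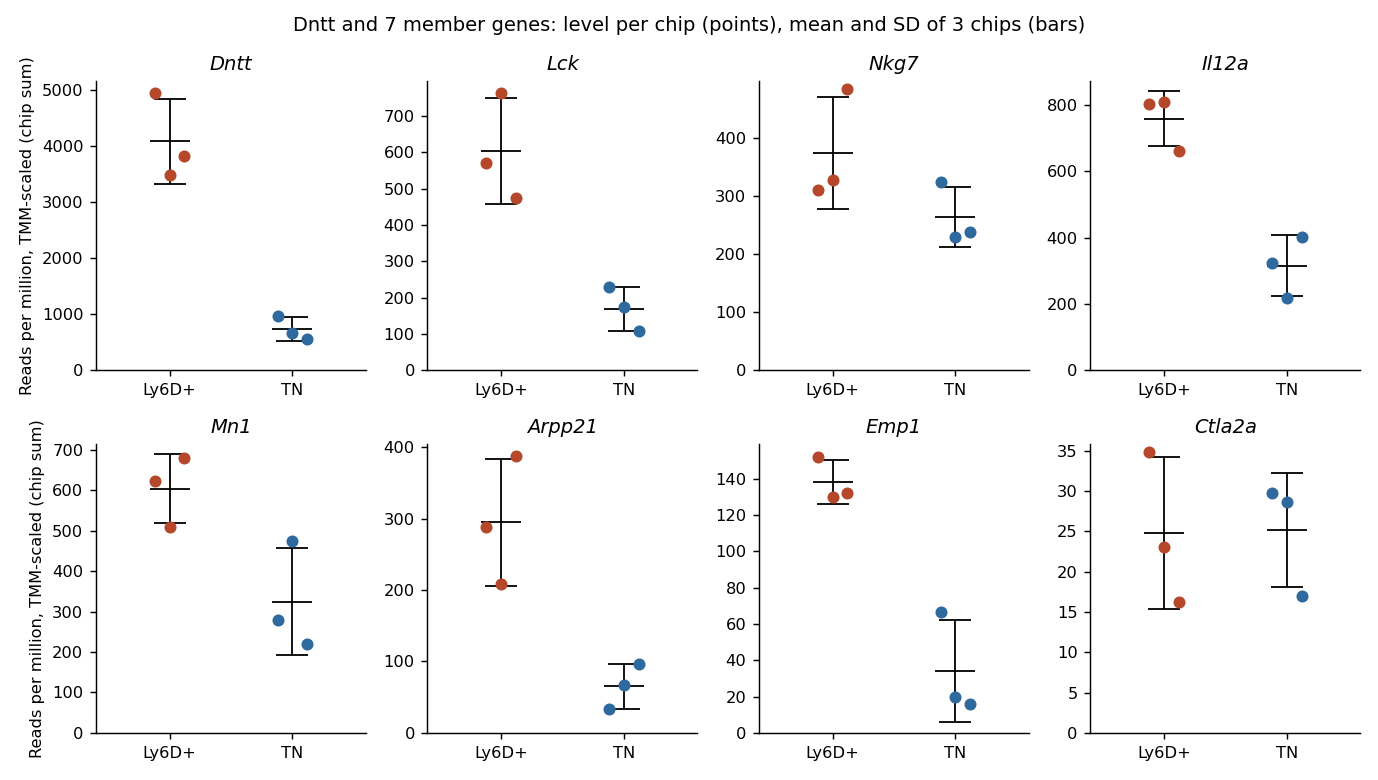
Level of Dntt and the 7 members in CPM on each chip (points), with the mean and SD of 3 chips (bars), Ly6D+ left and TN right in each panel, each panel with its own axis from 0. The chips do not overlap for Dntt and 5 members, while those of Nkg7 and Ctla2a do.

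Levels were also set per kilobase of the deposited gene length. That length need not be that of the transcript a cell makes, so the order of genes is uncertain to that extent. Arpp21, with 9 start sites, was divided by 10727 bases. In Ly6D+ cells Il12a at 553 ± 60.6 and Nkg7 at 460 ± 118 CPM per kilobase were the most abundant members (SD, n = 3 chips). Lck at 262 ± 63.9 and Mn1 at 98.5 ± 14.0 followed. Emp1 had 50.8 ± 4.58, Arpp21 27.5 ± 8.35 and Ctla2a 17.8 ± 6.77. The spread over chips overlapped between Il12a and Nkg7 and between Arpp21 and Ctla2a. Dntt stood above all of them at 1920 ± 357. In TN cells Nkg7 led with 325 ± 63.8, then Il12a with 230 ± 67.5, Lck with 73.9 ± 26.2 and Mn1 with 52.9 ± 21.6, followed by Ctla2a with 18 ± 5.09, Emp1 with 12.5 ± 10.3 and Arpp21 with 6.10 ± 2.94. Emp1 overlapped in its spread with both Ctla2a and Arpp21, while Ctla2a lay above Arpp21 on every chip. Lck and Mn1 overlapped too, as did Nkg7 and Il12a.

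Shares of cells with a member were separate between the populations also for the genes whose levels overlapped. Il12a was detected in 90%, 90% and 90.4% of cells on Ly6D+ chips 4, 5 and 6, against 60.0%, 47.8% and 55.1% on TN chips 1, 2 and 3. On average (SD, n = 3 chips each) Lck was found in 71.7% ± 5.05 of cells on Ly6D+ chips, against 30.0% ± 3.67 on TN chips. Arpp21 had the widest gap of the members, with 68.2% ± 13.3 on Ly6D+ chips and 15.9% ± 2.49 on TN chips. Nkg7, whose level overlapped, was detected in 80.0%, 58.3% and 78.8% of cells on Ly6D+ chips, against 52.0%, 34.8% and 43.5% on TN chips. Ctla2a, whose level overlapped too, was detected in 30.0%, 20% and 19.2% on Ly6D+ chips, against 17.3%, 10.1% and 10.1% on TN chips. Mn1 and Emp1 were found in 60.0% ± 10.9 and 36.3% ± 15.5 of Ly6D+ cells, against 30.4% ± 11.3 and 11.2% ± 3.11 of TN cells. The chips of the 2 populations did not overlap for any of the 7 members, against 11.6% of 6956 genes, and the exact two-sided permutation test gave p = 0.1 for each, the smallest that 3 chips against 3 allow. Among cells with the gene, the median level of Ctla2a was 82.1 CPM in 34 Ly6D+ cells and 116 CPM in 27 TN cells, and that of Lck was 393 CPM in 108 Ly6D+ cells and 287 CPM in 64 TN cells.

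**Figure D4:**
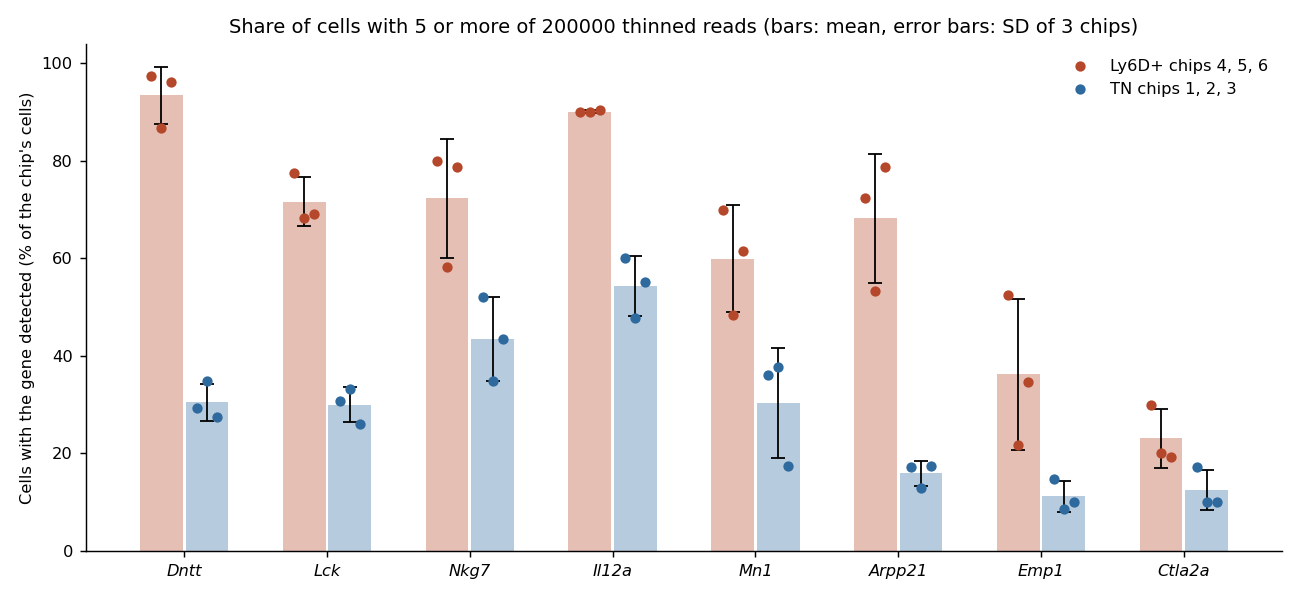
Percentage of cells with 5 or more of 200000 thinned reads for Dntt and the 7 members, as chip values (points), mean (bars) and SD of 3 chips (error bars), Ly6D+ left and TN right for each gene. For each gene the lowest Ly6D+ chip lies above the highest TN chip.

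Some lists of other cell type markers moved with the population, and their part in these differences was not tested. Over the 14 granulocyte and monocyte genes the sum was between 77.0 and 401 CPM on Ly6D+ chips and between 1626 and 3652 CPM on TN chips. T and innate lymphoid genes (12) summed to between 331 and 766 CPM on Ly6D+ chips and to between 1167 and 2094 CPM on TN chips, with 2 genes of the list at 0 in Ly6D+ cells and 1 in TN cells. Id2 alone had 99.5, 171 and 374 CPM on Ly6D+ chips 4, 5 and 6, against 522, 948 and 1454 CPM on TN chips 1, 2 and 3. Of the list's 10 tested genes 2 had a positive log2 fold change (median −2.08), and edgeR called 0. Genes of conventional dendritic cells and MHC class II (10) summed to between 1315 and 1870 CPM on Ly6D+ chips and to between 3998 and 6237 CPM on TN chips. B lineage genes (15) went the other way, with between 2778 and 3507 CPM on Ly6D+ chips and between 223 and 663 CPM on TN chips, and all 15 had a positive log2 fold change (median 3.52). Plasmacytoid dendritic genes (9, Ly6d among them) summed to between 4531 and 5824 CPM on Ly6D+ chips and to between 2306 and 3310 CPM on TN chips. Much of that gap was Ly6d, the marker of the sort, with between 2564 and 3046 CPM on Ly6D+ chips and at most 283 CPM on a TN chip. Of the 9 genes 5 had a positive log2 fold change (median 0.40), while Irf8, Runx2, Ly6c2 and Pacsin1 had a negative one. The sums therefore do not show that the list as a whole was higher in Ly6D+ cells. For 13 NK and cytotoxic genes, Nkg7 among them, the sum was between 574 and 779 CPM on Ly6D+ chips and between 789 and 1069 CPM on TN chips, with 5 genes of the list at 0 in Ly6D+ cells and 2 in TN cells. That list did not move one way: 4 of its 7 tested genes had a positive log2 fold change (median 0.27), while Fcer1g with 174 CPM in Ly6D+ and 472 CPM in TN cells and Klrk1 with 7.70 CPM in Ly6D+ and 112 CPM in TN cells had a negative one, and edgeR called 0 of the 7.

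The members were also compared with each other. Over their 21 pairs the median correlation across cells was 0.15 in Ly6D+ and 0.43 in TN cells, and 11 pairs in Ly6D+ and all 21 in TN cells were positive on all 3 chips. Between 13.8% (Il12a) and 39.7% (Mn1) of all genes were positive with a member on all 3 chips in Ly6D+ cells, and between 27.1% (Mn1) and 58.8% (Il12a) in TN cells. The closest pair in Ly6D+ cells was Arpp21 with Ctla2a at 0.29, and the loosest was Lck with Emp1 at 0.02. In TN cells the closest was Nkg7 with Ctla2a at 0.55 and the loosest Nkg7 with Arpp21 at 0.31. Lck and Arpp21 reached 0.54 on Ly6D+ chip 4 but −0.03 on chip 5 and 0.18 on chip 6. In Ly6D+ cells Mn1 with Arpp21 was the most even pair, at 0.28, 0.26 and 0.26. All were chosen for following Dntt in TN cells, so the TN values are a description.

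Among partners and relatives of the members' products, Il12b, the other chain of interleukin 12, had 0 reads in both populations. At 0 of 152 Ly6D+ and 0 of 213 TN cells the exact 95% interval reaches up to 2.40% for Ly6D+ and 1.72% for TN. Ebi3, which can pair with the Il12a product instead, had reads in 27 Ly6D+ cells (17.8%, exact 95% interval 12 to 24.8%) and 60 TN cells (28.2%, 22.2 to 34.7%). Around Lck, the receptor chain Cd3e had 0 reads in either population and the kinase Zap70 had reads in 7 Ly6D+ and 5 TN cells. The adaptor Lat had reads in 39 Ly6D+ and 33 TN cells. Of the other Src kinases Fyn had reads in 84 Ly6D+ and 85 TN cells and Lyn in 85 Ly6D+ and 140 TN cells, whereas Blk, the kinase of B cells, had reads in 72 Ly6D+ cells and 5 TN cells. Around Nkg7, the granule protease Gzma and the NK receptor Ncr1 had 0 reads and perforin (Prf1) had reads in 2 Ly6D+ cells and 1 TN cell. Other genes of the NK and cytotoxic list were more widely found. Fcer1g had reads in 98 Ly6D+ and 175 TN cells, Klrd1 in 41 and 38, Klrk1 in 9 and 57, and Ctsw in 23 and 17. In the family of Emp1, Emp3 had reads in 126 Ly6D+ and 183 TN cells, and Emp2 and Pmp22 in 0 Ly6D+ cells and in 1 TN cell each. Ctsl, the protease that the Ctla2a product inhibits, had reads in 31 Ly6D+ and 43 TN cells. Intervals and limits cover counting error only.

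Ctla2b, the paralog of Ctla2a, was detected in 11 Ly6D+ and 10 TN cells, and 7 of these Ly6D+ and 5 of these TN cells also held Ctla2a. Their longest coding transcripts match at 698 of 786 aligned bases (88.8%), and the promoter windows printed above match at 255 of 278 aligned bases. The counting could therefore split reads between the copies, and the Ctla2a values are uncertain to that extent. Ctla2b held 26.9% of the reads of both genes in Ly6D+ and 16.3% in TN cells.

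With most B lineage genes, Mn1 had the opposite sign to Dntt in Ly6D+ cells. Of 11 B lineage genes detected in at least 10% of Ly6D+ cells, 10 were positive with Dntt on all 3 chips and none was negative, where 14.5% of genes were positive and 18.5% negative. Mn1 showed the reverse, with 10 of 11 negative on all 3 chips and none positive, where 3.24% of genes were negative with Mn1. Cd79a, which carries the signal of the B cell receptor, had a mean of 0.20 with Dntt, −0.37 with Mn1 and −0.27 with Arpp21. The transcription factor Ebf1 had 0.30 with Dntt and −0.25 with Mn1. With Arpp21 it had −0.47 on chip 4 but 0.04 on chip 5 and 0.06 on chip 6. Igll1, part of the surrogate light chain, had 0.15 with Dntt, −0.35 with Mn1 and −0.29 with Arpp21. Arpp21 was negative on all 3 chips with 6 of the 11 genes, against 3.67% of all genes, and positive with none. The list's median correlation was −0.28 for Mn1, −0.19 for Arpp21, −0.14 for Ctla2a, −0.11 for Lck and Nkg7, −0.08 for Il12a and 0.00 for Emp1, against 0.20 for Dntt. In TN cells, where 3 genes of the list reached 10% of cells, the medians were between 0.18 and 0.39 for the members and 0.33 for Dntt.

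Of 14 G2/M genes in Ly6D+ cells, 13 were negative with Dntt on all 3 chips, with a median of −0.31, while the median was between −0.14 (Emp1) and 0.08 (Mn1) for the members. Emp1 and Nkg7 were each negative on all chips with 8 of the 14, against 11.0% and 5.46% of all genes. Ctla2a was so with 4, against 5.16% of all genes, and Lck, Il12a, Mn1 and Arpp21 with 0. In TN cells the median with early lymphoid genes (12 tested) was between 0.24 and 0.30 for the members and 0.31 for Dntt, and with stem and multipotent genes (5) it was between 0.24 and 0.36 for the members and 0.33 for Dntt. With granulocyte and monocyte genes (9) it was −0.23 for Dntt and between −0.19 (Mn1) and −0.03 (Nkg7 and Il12a) for the members. Nkg7 was positive on all 3 TN chips with 3 of these 9 genes, Il12a with 2 and Dntt with 0. Of all genes, 40.3% were positive in this way with Nkg7, 58.8% with Il12a and 30.3% with Dntt. Neither member's count exceeded its share over all genes. With genes of conventional dendritic cells and MHC class II (7) the median was −0.33 for Il12a and −0.19 for Nkg7, between −0.16 and −0.06 for the other members, and −0.10 for Dntt.

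**Figure D5:**
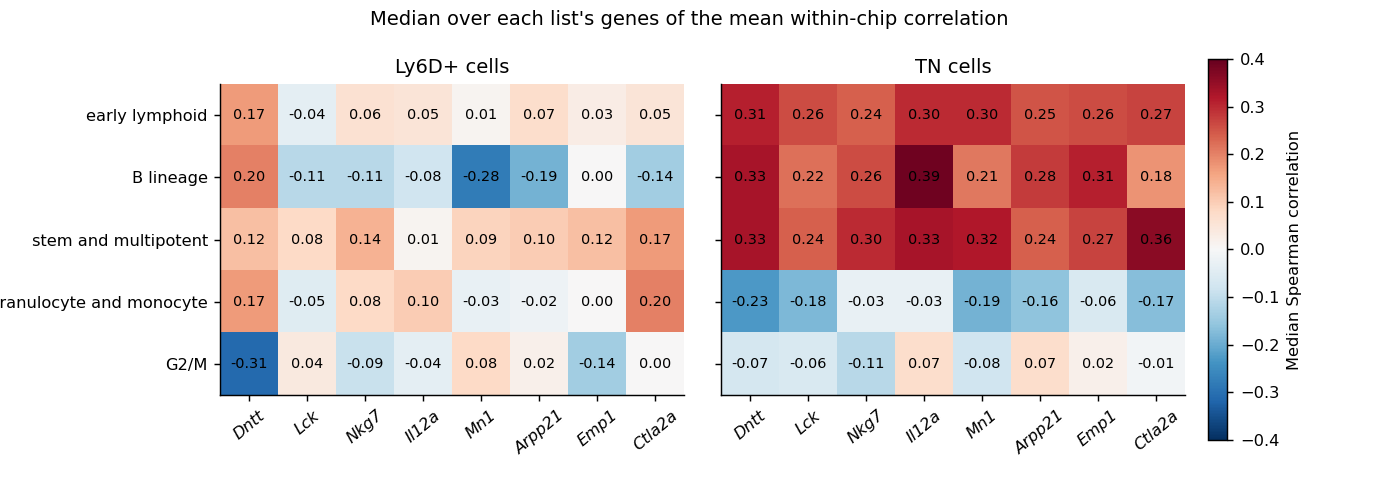
Median over the genes of each list of the mean within-chip Spearman correlation with Dntt and each member, in Ly6D+ cells (left) and TN cells (right). Colour and number give the same value. The B lineage row is positive for Dntt and at or below 0 for the members in Ly6D+ cells, from −0.28 for Mn1 to 0.00 for Emp1, and positive for all in TN cells. That row rests on 11 genes in Ly6D+ cells and on only 3 of the list in TN cells, so the populations are not compared on the same genes.

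Over all 6 chips and 4603 genes detected in at least 20% of all cells, the genes most like each member were often Dntt itself. Dntt was the closest gene to Il12a (mean correlation 0.36) and to Emp1 (0.37), and the second closest to Lck (0.31, after Ctr9 with 0.32) and Arpp21 (0.33, after Adgrg1 with 0.34). Nkg7 was closest to Cd27 and Mif (0.39 each), Mn1 to Il1r1 (0.37) and Nkg7 (0.36), and Ctla2a to Cd34 (0.40) and Nkg7 (0.39). In each list Ly6D+ and TN chips counted equally, so these values mix the TN chips that chose the members with the Ly6D+ chips that did not.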

How the data were processed

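Single-cell RNA-seq of 152 Ly6D+ and 213 TN cells was used, and the members and gene lists were chosen with earlier results of these data known. The authors deposited raw read counts per gene and cell for cells that had passed their quality filters, out of 178 Ly6D+ and 232 TN cells captured per the series' design text. The submitters' processing notes name mm9 and R 3.2.0. Aligner, counter and strand setting: not given in the sources used here. The SMARTer and Nextera XT libraries, per the labels' protocols, have neither molecular identifiers nor strand marks. The gene lengths in the deposited table served only for levels per kilobase. Symbols came by Entrez identifier from RefSeq (GRCm38.p6) for 23334 of 23427 genes, and 93 kept their number. Promoter windows carry GRCm38.p6 coordinates, which were not joined to the counts.

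The replicate was the chip (3 per population), and chips share 0 cell names. Since the labels tie no mouse pool to a chip, p-values reflect chip-to-chip spread only, part of which may be technical. Reads were summed per chip (35734620 to 61415823 per chip), or per chip and Dntt class, and went into edgeR 4.0.16 under R 4.3.3 (quasi-likelihood, TMM, filterByExpr, Benjamini-Hochberg adjusted p under 0.05), with DESeq2 1.42.0 and limma 3.58.1 (pseudocount 1) as alternatives. Cells of a chip above its median Dntt CPM formed the Dntt-higher class. Shares of cells were compared by an exact permutation test over 6 chips. Named genes were the members, Dntt, partners and paralogs, the 2 genes most like each member, and up to 3 genes per list. Added to these were the genes most correlated with Dntt in each population and genes near the members in the TN ranking. The steps were tested on simulated data. No doublet caller was run, and no source used here says whether doublets had been removed.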

Additional observations from a re-analysis of the deposited data

How the results depend on the processing

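Against 0 of 7 members and 24 genes called by edgeR between Ly6D+ and TN chips, DESeq2 called 4 members and 561 genes, and limma-trend on chip means of log2(CPM+1) called 6 members and 326 genes. Without the Xist-expressing cells of TN chip 2 edgeR called 7 genes, and with 1 chip left out in turn between 2 and 23 genes (2 without Ly6D+ chip 6, 4 without Ly6D+ chip 4), with 0 members each time. Ctla2a changed sign from −0.02 to 0.86 with limma-trend and to 0.09 with thinned reads, and lay between −0.35 and 0.19 with 1 chip left out. Between Dntt-higher and Dntt-lower Ly6D+ cells, where edgeR called 0 genes, DESeq2 called 487 and limma-trend 5, and no setting called a member. There Lck was −0.53 by edgeR and 0.08 by limma-trend, and Mn1 lay between −0.02 and 0.44 with 1 chip left out. Leaving out the chip term (no replicate block) called 0 genes and no member and turned no sign. No paired analysis was possible because Ly6D+ and TN chips share no replicate number, other than between the Dntt classes within a chip.

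Members positive with Dntt on every Ly6D+ chip numbered 4, but 7 by Pearson correlation, 7 by detected calls and 2 among cells with Dntt detected. For the calls, the sign on chip 4 was fixed by the 1 cell without Dntt, which held no member. The share of cells with a member was free of overlap for 7 members, and for 1 among cells with Dntt detected. Apart from the calls on chip 4, the cause of these changes was not tested. Depth limits the rare members most: Ctla2a was detected in 34 Ly6D+ and 27 TN cells, and Emp1 in 52 Ly6D+ and 24 TN cells.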

Other observations

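Outside the group, the 8 genes with the highest correlation with Dntt in Ly6D+ cells were picked on those same values. They were taken among genes positive on all 3 Ly6D+ chips and detected in 20% or more of Ly6D+ cells. The choice favours high values, so a comparison with the members, which were not chosen there, is no test. By mean within-chip Spearman correlation, Gimap6 led with 0.46 ± 0.11 (SD, n = 3 chips), as it did in TN cells with 0.67. Xrcc6, a subunit of the Ku complex that binds broken DNA ends, had 0.44 in Ly6D+ and 0.40 in TN cells, and Egfl7 had 0.43 in both. Dusp2, a phosphatase of MAP kinases, had 0.39 in Ly6D+ and 0.44 in TN cells, and Gimap4 had 0.38 and 0.39 there. Rps19 with 0.41 and its pseudogene Rps19-ps3 with 0.40 in Ly6D+ cells can share reads, and had 0.21 and 0.14 in TN cells. Cd84 had 0.41 in Ly6D+ and 0.17 in TN cells.

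In TN cells Septin1 (0.49), Notch1, Lax1 and Ly6a (0.48 each) and Cox6a2 (0.47) followed the members in the ranking of correlation with Dntt. Cd69 had 0.47, Ptprcap 0.46 and Gimap9 0.45. In Ly6D+ cells Cd69 had 0.36, Gimap9 0.33 and Lax1 0.25, whereas Notch1 had 0.17, Ly6a 0.12, Septin1 0.10, Ptprcap 0.09 and Cox6a2 −0.02. These genes were ranked on the values given, so none of the values is a test.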
